A study of Mus musculus with 8 samples.

Results

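The 8 genes described here are Aim2 and 7 genes of the neighbouring Ifi200 cluster, Ifi203, Ifi204, Ifi205, Ifi206, Ifi207, Ifi209 and Ifi211. They were taken by symbol from a count table of 55376 genes, all 8 were found, and all 8 had enough counts to be tested. The cells were mouse dendritic cells derived in culture from bone marrow, a type of cell that takes up microbes and presents antigen to T cells, and they received heat-killed Prevotella overnight, either P. heparinolytica (PH) or P. melaninogenica (PM). There were 3 PH and 3 PM samples, which carry the sample ids 1, 3 and 4 in each treatment and are called replicates 1, 3 and 4 below. Mouse strain, age and culture cytokines (not given in the sources used here) cannot be described. All samples received bacteria, so each difference is between the 2 bacteria, and the effect of either against unstimulated cells was not measured. The study asked how the microbiome bears on PD-1 and PD-L1 blockade in multiple myeloma, and here polyadenylated RNA of the cells was sequenced. Bulk RNA does not tell fewer expressing cells from less RNA per cell.

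PYHIN proteins combine an N-terminal pyrin domain, which binds other pyrin domains, with a C-terminal HIN domain, which binds double-stranded DNA. Aim2 senses DNA in the cytosol and recruits the adaptor ASC (gene Pycard) and through it caspase-1, a protease that matures interleukin-1 beta and interleukin-18 and cleaves gasdermin D. The Ifi200 genes are known as interferon-inducible genes, were multiplied in rodents and lie side by side on chromosome 1. Among them p204, the product of Ifi204, is a mostly nuclear DNA-binding protein related to human IFI16 and tied to signalling through STING.

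In the deposited table the 8 genes span chromosome 1 from 173350879 to 174031755 (GRCm38), in the order Aim2, Ifi206, Ifi209, Ifi207, Ifi204, Ifi211, Ifi203 and Ifi205. Aim2 and Ifi209 are on the plus strand and the other 6 on the minus strand. The table draws Aim2 from 173350879 to 173466040, Ifi206 from 173468485 to 173491041, Ifi209 from 173630917 to 173647928 and Ifi207 from 173723427 to 173741747. Ifi204 lies from 173747293 to 173766919, Ifi211 from 173896345 to 173913046, Ifi203 from 173920407 to 173942672 and Ifi205 from 174011998 to 174031755. The promoter windows of RefSeq (GRCm38.p6, 250 bases before to 50 bases after a start site) matched 7 of the 8 genes, all but Ifi204. They were searched for the core of the interferon-stimulated response element (GAAA, any 2 bases, then GAAA again) and for TTCNNNGAA, the GAS element, on both strands. The first motif lay in a window of 5 of these 7 genes (Ifi203, Ifi205, Ifi206, Ifi207 and Ifi211), against 3.99% of all 27025 genes with a window (3.44% of the 32851 windows). The second lay in none of their windows, against 8.30% of all windows. The stretches around the first motif are shown because some of them are close copies of each other and others are not. Each runs 5′ to 3′ on the strand of its gene with 20 bases on either side of the motif, and capitals mark the motif or, in Ifi209, a stretch that fits it but for a single base.
Ifi206, chr1:173491329-173491378, minus: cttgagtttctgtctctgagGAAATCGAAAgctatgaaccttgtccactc
Ifi209, chr1:173630760-173630809, plus: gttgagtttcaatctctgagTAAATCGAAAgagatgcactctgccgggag
Ifi207, chr1:173741821-173741870, minus: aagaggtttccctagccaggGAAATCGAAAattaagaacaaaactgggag
Ifi211, chr1:173913054-173913103, minus: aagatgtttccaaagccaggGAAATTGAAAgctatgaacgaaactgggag
Ifi203, chr1:173942498-173942547, minus: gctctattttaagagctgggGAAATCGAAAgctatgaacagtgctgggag
Ifi205, chr1:174031860-174031909, minus: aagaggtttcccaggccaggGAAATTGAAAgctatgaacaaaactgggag

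Compared base by base without gaps, the stretches of Ifi205, Ifi207 and Ifi211 matched each other at 42 to 46 of their 50 bases. Every other pair of the 6 matched at 24 to 35 of 50, the motif included, with 24 for Ifi206 and Ifi207.

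The motif began at position -40 in Ifi206, -41 in Ifi207, -37 in Ifi211, -35 in Ifi203 and -134 in Ifi205, counted from the start site of each window. Ifi205 had a further match on the opposite strand, from position 24 to 33 of the gene. Ifi203 has 2 windows in the table, and only the one from 173942443 to 173942742 held a match. The stretch of Ifi209, from position -79 to -70, differs from the motif by G1T, counted from 1 at the 5′ end of the motif, and 35.4% of all windows hold the motif with at most 1 such difference. The window of Ifi209 had 2 such stretches on the strand of the gene. The stretch shown was picked because its end is the same as in the motif of other PYHIN genes. Of the other PYHIN genes with a window, Ifi208, Ifi213, Ifi214 and Mndal had a match to the response element core and Ifi202b had none. Of the 12 PYHIN genes with a window, only Ifi202b had a match to the GAS element, from position -148 to -140. The full run GAAATCGAAA, looked for after the sequences had been seen, lay in 16 of the 32851 windows, 7 of them of PYHIN genes (Ifi203, Ifi206, Ifi207, Ifi208, Ifi213, Ifi214 and Mndal) and 9 of 9 other genes. The 50 bases around the motif of Mndal are the same, letter for letter, as those of Ifi203, and those of Ifi208 and Ifi213 are the same as each other. These genes are related, so their windows are not independent. No window of Aim2 held either motif in full. The 80 bases before its RefSeq start site, which lies inside the gene as the table draws it, are shown for comparison. On the opposite strand they too hold the response element core but for a single base, at tttctttgtc, which is not marked. So a stretch of the kind marked in Ifi209 does not set that gene apart from Aim2.
Aim2, chr1:173420524-173420603, plus: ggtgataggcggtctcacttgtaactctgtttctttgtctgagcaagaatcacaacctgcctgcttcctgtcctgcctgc

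With PM, the level of 7 of the 8 genes was lower in each of the 3 samples than in any PH sample, and the level of Aim2 overlapped between the treatments. Of these genes, 4 fell by the edgeR quasi-likelihood test at an adjusted p of 0.05 (Ifi203, Ifi204, Ifi205 and Ifi211) and 0 rose. Of all 14382 genes tested, 1.64% were called lower and 0.702% higher. The median log2 fold change (PM over PH) was -1.08 for the 8 genes and 0.01 for all genes. In a fit with a replicate block by sample id, Ifi206, Ifi207 and Ifi209 passed as well, which made 7 lower and 0 higher, where 8.27% of all genes were called lower and 7.0% higher. DESeq2 without a block called the same 7 genes lower, with 2.66% of all genes lower and 1.4% higher. Levels that did not overlap were found for 9.28% of all genes in the lower direction and 10.1% in the higher, so lack of overlap alone is not rare in these samples.

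**Figure D1:**
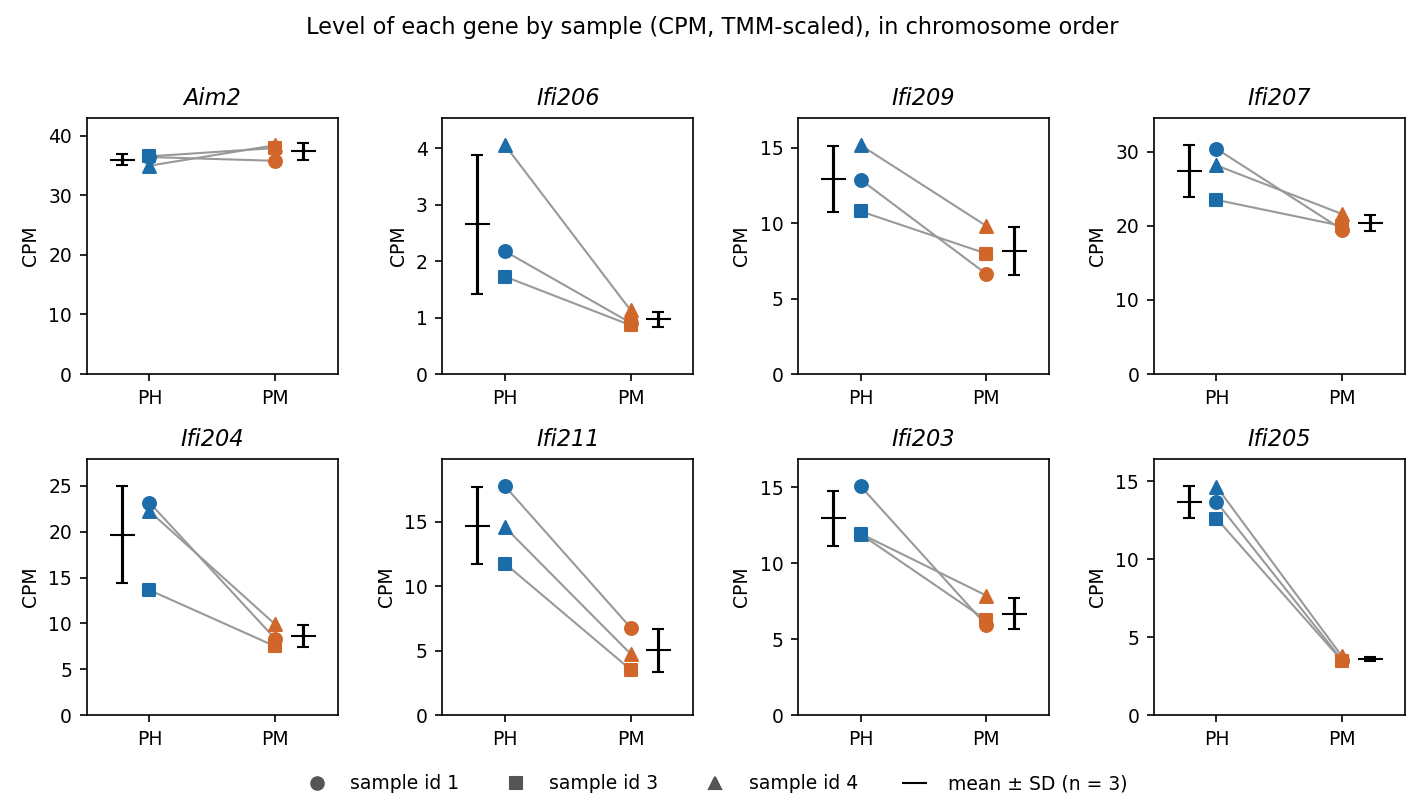
Level of each gene in each sample in CPM (read counts scaled to library size by TMM), with PH in blue and PM in orange, symbols for the sample ids, grey lines that join samples of the same id, and black bars for the mean ± SD of 3 samples. PM lies below PH for every id in 7 genes, and the lines of Aim2 are close to level at 35.0 to 38.4 CPM.

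Ifi205, whose product p205 is a nuclear protein reported to act on expression of the inflammasome adaptor gene Pycard, had the largest fall of the 8. Its level was 13.7, 12.6 and 14.7 CPM in PH replicates 1, 3 and 4, and 3.54, 3.50 and 3.77 CPM in PM replicates 1, 3 and 4. The samples of each treatment lay close together and the treatments were far apart. Its log2 fold change was -1.93 ± 0.11 (SE), a level 3.80-fold higher with PH (adjusted p = 1.1e-04 by edgeR). Ifi205 was the 19th lowest of the 14382 fold changes and passed in each fit that left out a sample (adjusted p up to 0.00225). Within ids 1, 3 and 4 the log2 difference was -1.93, -1.83 and -1.94, the narrowest spread among the 7 genes that were lower.

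Ifi211, listed in RefSeq under the older names Mnda and Ifi205b, was at 17.7, 11.7 and 14.6 CPM in the PH samples and at 6.78, 3.53 and 4.75 CPM with PM. Here the samples of a treatment differed more, and the highest PM sample (replicate 1) still lay below the lowest PH sample (replicate 3). It fell by 1.59 ± 0.23 (SE) on the log2 scale (adjusted p = 0.00850 by edgeR). The call was lost without PM replicate 4 (adjusted p = 0.0560). Of the distinct 50-base stretches in its GENCODE transcript, 72.8% also occur in another PYHIN gene, 44.7% in Ifi205 and 30.1% in Ifi204, so reads of Ifi211 may be split with or lost to these genes and its value is uncertain. The share was 33.4% for Ifi209, 19.2% for Ifi204, 18.6% for Ifi205 and 17.7% for Mndal. For Ifi206, Ifi203 and Ifi207 it was 15.8%, 12.2% and 5.39%. The same limit thus holds for these genes to a lesser degree.

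Ifi204 was at 23.2, 13.6 and 22.2 CPM in PH replicates 1, 3 and 4, and at 8.36, 7.52 and 9.93 CPM in PM replicates 1, 3 and 4. PH replicate 3 stood well below the other PH samples and still above each PM sample. The log2 fold change was -1.22 ± 0.19 (SE), 2.32-fold higher with PH, with adjusted p = 0.0126 by edgeR. Ifi204 missed the threshold without PH replicate 4 (adjusted p = 0.0799), PM replicate 1 (0.0516) or PM replicate 3 (0.0704). It passed with the block, at -1.18 ± 0.09 (SE).

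Ifi203, the cluster gene with the longest exons in the table (5045 bases), was at 15.1, 11.9 and 11.9 CPM in the PH samples and at 5.92, 6.26 and 7.88 CPM with PM. PH replicate 1 was the highest, and the other PH samples were nearly equal. Ifi203 fell by 0.95 ± 0.15 (SE) on the log2 scale (adjusted p = 0.0110 by edgeR), and adjusted p was 0.0551 without PM replicate 3. The differences within ids 1, 3 and 4 were -1.34, -0.92 and -0.60. Exons of Ifi203 and Mndal share 37 bases, which is 0.733% of Ifi203.

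Ifi206, a sparsely expressed PYHIN gene, was at 2.18, 1.73 and 4.06 CPM in the PH samples and at 0.908, 0.866 and 1.13 CPM with PM, from 19 to 163 counts per sample. PH replicate 4 was far above the other PH samples. The log2 fold change of -1.52 ± 0.33 (SE) was nearly as large as that of Ifi211, but it did not pass (adjusted p = 0.0552 by edgeR, 5.4e-06 with the block). It was -1.02 without PH replicate 4.

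Ifi209, the gene also known as Pyhin1, and Ifi207, which has been tied to STING signalling and to control of retroviruses, had the smallest differences of the 7. Ifi209 was at 12.9, 10.8 and 15.2 CPM in the PH samples and at 6.64, 7.99 and 9.83 CPM with PM. Ifi207 was at 30.4, 23.5 and 28.1 CPM in the PH samples and at 19.5, 19.98 and 21.6 CPM with PM. For both, the lowest PH sample was replicate 3 and the highest PM sample replicate 4, and the groups came close without overlap. The log2 fold change was -0.68 ± 0.17 (SE) for Ifi209 (adjusted p = 0.0857 by edgeR, 4.2e-06 with the block). It was -0.43 ± 0.10 (SE) for Ifi207 (adjusted p = 0.0694 by edgeR, 6.0e-05 with the block). Ifi207 passed without PH replicate 3 (adjusted p = 0.0327).

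Aim2, the DNA sensor of the inflammasome, was at 36.4, 36.5 and 35.0 CPM in PH replicates 1, 3 and 4, and at 35.8, 37.9 and 38.4 CPM in PM replicates 1, 3 and 4. The treatments overlapped. Its log2 fold change was 0.06 ± 0.06 (SE) with adjusted p = 0.771 by edgeR, and 0.592 with the block. The 95% interval of the fold change reached from -0.08 to 0.20 on the log2 scale, that is from 0.943 to 1.15 times the PH level, and the fold changes of the other 7 genes all lie outside it. None of the 50-base stretches of Aim2 transcripts occur in another PYHIN gene.

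Relative to Aim2 in the same sample, each of the other 7 genes had lower log2 ratios in all 3 PM samples than in any PH sample. The mean ratio moved by between -0.47 (Ifi207) and -1.95 (Ifi205). The two-sided exact permutation test gave p = 0.1 for each of the 7 ratios, which is the smallest p that 3 samples against 3 allow, and 0.1 after Benjamini-Hochberg adjustment over the 7. These ratios were formed after the values had been seen. Aim2 was nearly level and the 7 genes already did not overlap, so the ratios restate that separation. The test thus adds no support, and how many of all genes have such ratios was not tested.

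**Figure D2:**
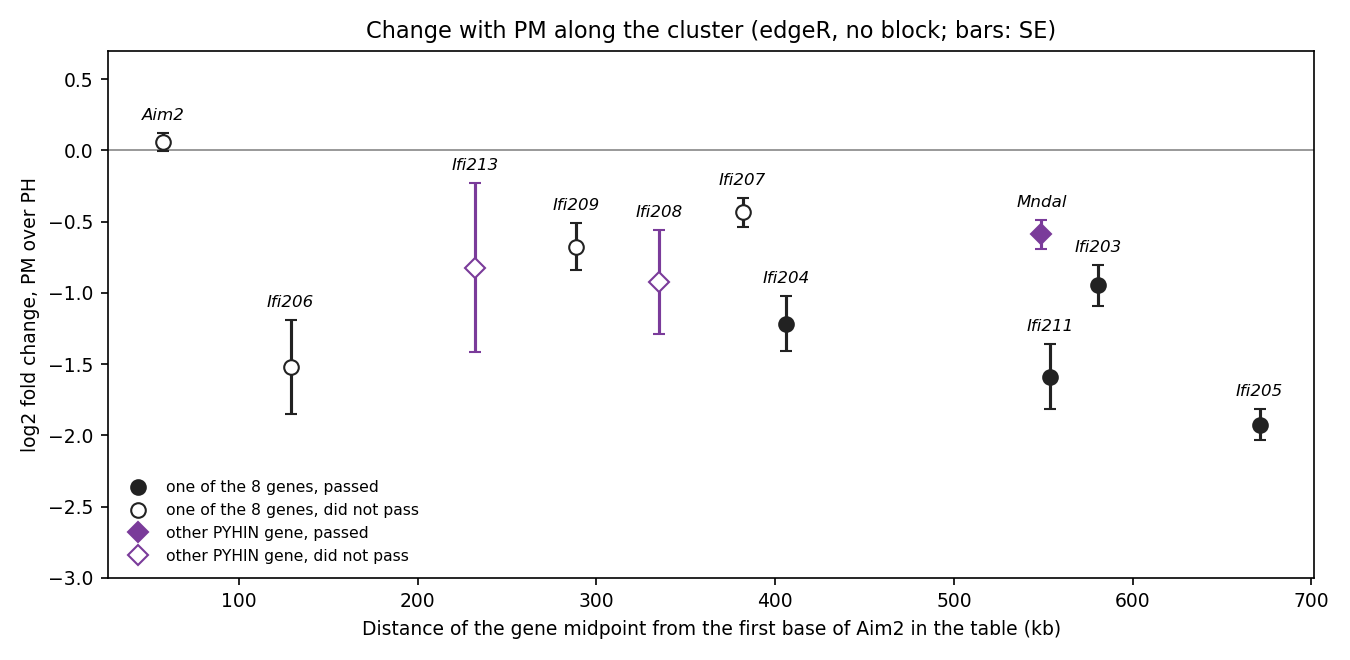
Log2 fold change (PM over PH) with its SE by edgeR without the block, against the distance in kb of each gene's midpoint from the first base of Aim2, for the 8 genes (circles) and the other PYHIN genes tested (diamonds); filled symbols passed an adjusted p of 0.05. All points but Aim2 lie below 0, from -0.43 (Ifi207) to -1.93 (Ifi205), and neighbours differ in size.

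The other PYHIN genes in the table had mostly few counts. Mndal, which is drawn in the table from 173857220 to 173942491 so that it encloses Ifi211 and reaches into Ifi203, fell from 27.6 ± 3.10 CPM to 18.4 ± 1.45 CPM (SD, n = 3 each), or by 0.59 ± 0.10 (SE) on the log2 scale (adjusted p = 0.0190 by edgeR). Mndal lost its call without PH replicate 4 or PM replicate 3 (adjusted p up to 0.0813). Ifi208 was at 0.432 to 0.846 CPM in PH and 0.239 to 0.499 CPM in PM samples (-0.92 ± 0.36, adjusted p = 0.315). Ifi213 was at 0.493 to 0.547 CPM in PH and 0.0333 to 0.513 CPM in PM samples (-0.82 ± 0.59, adjusted p = 0.629), and neither passed with the block. Ifi214, Ifi202b, whose product lacks a pyrin domain and inhibits Aim2, and the pseudogene Ifi203-ps had 11, 7 and 16 counts in all and were not tested. The older symbols Pyhin1, Pydc3, Pydc4 and Mnda are RefSeq synonyms of Ifi209, Ifi208, Ifi213 and Ifi211.

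Within 500 kb of the cluster on either side, and inside it, the table has 47 genes that are not of the PYHIN family. Of these, 35 had no counts, and only Fcer1a, the alpha chain of the IgE receptor of mast cells and basophils, was tested. Fcer1a was at 2.49 ± 0.314 CPM in PH and 2.91 ± 0.440 CPM in PM samples (SD, n = 3 each) and did not pass (0.25 ± 0.19 SE on the log2 scale, edgeR's adjusted p = 0.645). So there is little expression next to the cluster with which its genes could be compared.

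To set the genes beside each other, CPM was divided by exon length in kb. On this scale Aim2 had the highest level of the 8 in all 6 samples, at 12.7 ± 0.308 CPM per kb with PH and 13.2 ± 0.490 with PM (SD, n = 3). With PH, Ifi204 (8.58 ± 2.29), Ifi205 (8.46 ± 0.635), Ifi211 (8.22 ± 1.68) and Ifi207 (7.99 ± 1.03) followed and did not differ beyond their spread. With PM, Ifi207 was second in all 3 samples at 5.95 ± 0.320 CPM per kb, and Ifi204 (3.75 ± 0.532), Ifi211 (2.81 ± 0.921), Ifi209 (2.37 ± 0.465) and Ifi205 (2.23 ± 0.0927) came after it, and the last 3 of these did not differ beyond their spread. Ifi203 was seventh and Ifi206 lowest in all 6 samples. In CPM without length, Aim2 was also highest, Ifi207 second and Ifi206 lowest in all 6. Aim2 shares none of its 50-base stretches with another PYHIN gene, against 72.8% for Ifi211 and 33.4% for Ifi209. Reads of the other 7 genes may thus be split or lost where those of Aim2 are not. The order between genes is therefore uncertain, and the size of this effect was not tested.

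**Figure D3:**
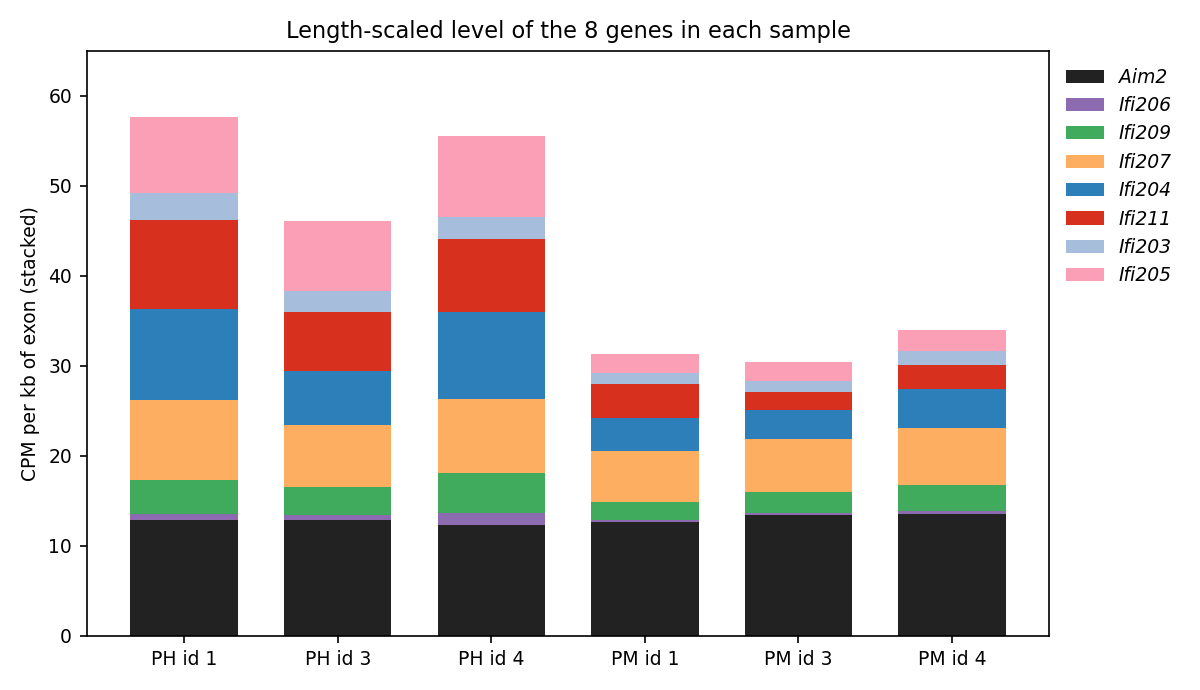
Level in CPM per kb of exon of the 8 genes, stacked for each of the 6 samples, with colours for genes in chromosome order. The black part, Aim2, is of about the same height throughout, while the stack above it is lower in the 3 PM samples.

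The summed level of the 8 genes was 46.1 to 57.7 CPM per kb in the PH samples and 30.5 to 33.9 in the PM samples. Aim2 made up 22.2% to 27.9% of the sum with PH and 39.8% to 43.8% with PM. The share of Ifi205 was 14.7% to 16.9% with PH and 6.89% to 7.11% with PM. Ifi207 had 14.8% to 15.4% with PH and 18.2% to 19.2% with PM. So the make-up of the counted transcripts of these 8 genes differed between the treatments along with their sum. Because reads of genes other than Aim2 may be split or lost, the size of each share is uncertain. Mndal, a PYHIN gene outside the 8, was not counted in the sum or the shares. Its mean level was 13.4 CPM per kb with PH and 8.91 with PM, so the shares do not describe the whole family.

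Within PH, replicate 3 had the lowest level of all 7 genes that were lower with PM. Within PM, replicate 4 had the highest level of 6 of them, all but Ifi211. How many of all tested genes have this order was not counted, and its cause was not tested. PH replicate 3 was also the shallowest sample, with 11624367 counts against 21192990 to 40233148 in the others. It had 4029 CPM of Gm42418, a predicted gene on the RNA quality list, against 878 to 1496 CPM in the other 5 samples. Without it 5 of the 8 genes fell, Ifi207 in addition, with a median log2 fold change of -1.20 and 1.11% of all genes called lower and 0.297% higher. In the labels, PM replicate 1 and PH replicate 3 have a second sequencing run each. Without both, 7 of the 8 genes fell (3.13% of all genes called lower and 1.09% higher) with a median of -1.15.

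The inflammasome list, which holds partners of Aim2 and other inflammasome genes, mostly did not pass without the block. Of 11 inflammasome genes 1 fell and none (0) rose, where 1.64% of all genes were called lower and 0.702% higher. Their median was -0.06. The gene that fell was Casp4, the receptor of cytosolic lipopolysaccharide, at 79.7 ± 3.15 CPM in PH and 56.5 ± 1.13 CPM in PM samples (-0.49 ± 0.06 SE, adjusted p = 0.00305 by edgeR). The adaptor gene Pycard was at 73.0 ± 4.73 CPM in PH and 71.5 ± 3.94 CPM in PM samples (adjusted p = 0.914). Casp1, the protease that Aim2 activates through it, was at 103 ± 8.78 and 82.1 ± 3.67 CPM (-0.33 ± 0.07 SE, adjusted p = 0.0610 by edgeR, 1.0e-05 with the block). Of its substrates, Il1b was at 2295 ± 589 CPM in PH and 1586 ± 479 CPM in PM samples (adjusted p = 0.360, 4.2e-10 with the block), and Il18 at 3.51 ± 0.452 and 3.84 ± 0.119 CPM (adjusted p = 0.749). With the block 5 of the 11 fell and 1 rose, where 8.27% of all genes were called lower and 7.0% higher. These shares of all genes, without and with the block, also apply to the lists below.

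Of 15 genes on a list of cytosolic DNA sensing and related genes, 2 fell and 0 rose, with a median of -0.11. They were Zbp1, a sensor of Z-form nucleic acids (41.1 ± 3.11 CPM with PH, 11.8 ± 0.214 CPM with PM), and Ifi35, an interferon-inducible protein gene (-0.43 ± 0.07 SE). Cgas, the enzyme that makes the STING ligand cGAMP, had a log2 fold change of -0.25 ± 0.09 (SE) and Tmem173, which encodes STING, one of -0.11 ± 0.07, and neither passed with either fit. With the block 5 of the 15 fell. Of 11 genes that clear or edit nucleic acids, 2 fell and 0 rose, with a median of 0.12. These were Trex1, the main cytosolic DNA exonuclease, from 71.6 ± 1.03 to 44.7 ± 0.776 CPM, and Adar, an RNA-editing enzyme (-0.46 ± 0.06 SE). With the block 4 fell and 4 rose, among the latter the lysosomal nuclease gene Dnase2a (0.46).

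**Figure D4:**
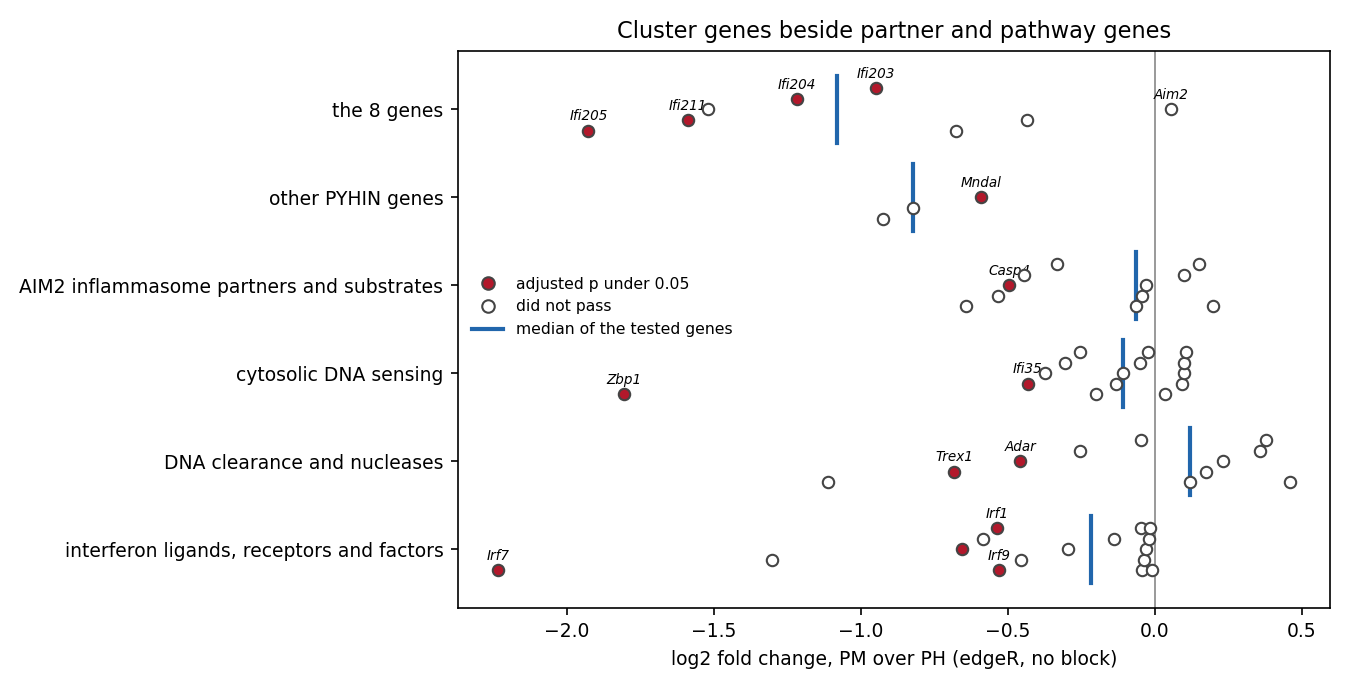
Log2 fold change (PM over PH, edgeR without the block) of each tested gene of the 8, of the other PYHIN genes and of 4 lists of partner and pathway genes; red points passed an adjusted p of 0.05 and blue lines are medians. The median of the 8 is -1.08, while the 4 partner and pathway lists have medians from -0.22 to 0.12.

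Among 16 tested interferon ligands, receptors and factors, 4 fell and 0 rose, with a median of -0.22. Irf7, which drives type I interferon genes, was at 30.7 ± 6.26 CPM in PH and 6.62 ± 1.10 CPM in PM samples. Irf9 (-0.53 ± 0.07 SE) and Irf1 (-0.54 ± 0.09), both transcription factors of interferon responses, were among those that fell. The receptor genes Ifnar1 (-0.04 ± 0.08) and Ifnar2 (-0.04 ± 0.10) did not pass with either fit. Ifnb1 had 10 counts over all samples, Ifna4 had 1, and Ifna1 and Ifna2 had 0, so these 4 ligand genes were at or near the limit of detection when the RNA was taken. The type II ligand gene Ifng was at 0.852 ± 0.245 CPM in PH and 0.313 ± 0.160 CPM in PM samples (SD, n = 3 each) and did not pass without the block (-1.30 ± 0.40 SE, adjusted p = 0.182 by edgeR, 0.00753 with the block). With the block 9 of the 16 fell.

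Other interferon-inducible families fell too. Of 8 tested Oas genes 6 fell (median -1.56), of 5 Ifit genes 4 (median -1.80) and of 8 Gbp genes 7 (median -0.98), and 0 rose in each. With the block the counts were 7, 4 and 8. Whether the PYHIN genes differ from these families was not tested. Over the 6 samples, the genes outside the family with the profile most like the mean standardised log2 CPM of the 8 were Trim30d (Pearson r = 0.996), Fbxo17 (0.994), Ifit3b (0.994), Ascc3 (0.993) and Eif2ak2 (0.991). These 6 points share their libraries and treatment groups, so such values are a description. Of the 5, Trim30d (-1.31 ± 0.16 SE), Ifit3b (-2.47 ± 0.44) and Eif2ak2, the antiviral kinase PKR (-0.62 ± 0.09), passed by edgeR, while Fbxo17 (adjusted p = 0.640) and Ascc3 (0.134) did not.

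The dendritic cell label was set against markers. Of 12 conventional dendritic cell markers, Itgax (133 to 178 CPM), Zbtb46 (59.4 to 84.4 CPM), Flt3 and the class II genes were present in all samples, while Cd209a had 0 counts and Xcr1 at most 0.433 CPM. None of the 10 tested passed (1 lower and 1 higher with the block). Macrophage markers were present as well, such as Adgre1 (416 to 635 CPM), with C1qa at most 0.123 CPM, and 0 of 7 passed (1 lower and 2 higher with the block). Of 6 monocyte markers 1 fell, Cx3cr1 (-0.78 ± 0.15 SE), and 4 fell with the block. Their summed level was 255 to 351 CPM in PH and 198 to 268 CPM in PM samples. Of 8 tested neutrophil markers 1 fell, Csf3r (-0.96 ± 0.09 SE), and 4 fell with the block, with sums of 444 to 551 and 330 to 463 CPM. None of the markers of these 2 types had 0 counts in all samples. Of 5 stromal markers 1 fell, Pdgfrb (-0.70 ± 0.10 SE), and of the tested plasmacytoid dendritic cell, B cell, T cell, NK cell, mast cell and basophil, erythroid and megakaryocyte markers and of 8 RNA quality genes 0 passed. With the block 1 plasmacytoid marker (Tcf4, -0.26) and 1 NK cell marker (Gzma, -1.06) fell, and 1 megakaryocyte marker (Ppbp, 0.39) rose. The part of such cells in the levels of the PYHIN genes was not tested.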

How the data were processed

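The series lists 8 RNA-seq libraries (4 PH, 4 PM), of which 2 are second runs, and the deposited table has 6 count columns, 3 per treatment. A column name matches 2 libraries for PM replicate 1 and PH replicate 3. Whether such a column holds 1 run or the sum was not given in the sources used here, so the comparison was also made without both columns. The authors deposited whole-number read counts per gene, without normalization. STAR 2.5.3a, featureCounts 1.6.4, Trimmomatic and GRCm38 are named, per the submitters' processing notes. With annotation release, strand setting and multimapping not given in the sources used here, reads of near-identical genes could be split or lost.

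Totals were 11624367 to 40233148 counts. PM was compared with PH by edgeR 4.0.16 under R 4.3.3, with TMM scaling and genes kept by filterByExpr (minimum count 10), with glmQLFit (robust) and glmQLFTest over 14382 genes, Benjamini-Hochberg adjustment and a threshold of 0.05. SE is the fold change divided by the root of F. CPM uses TMM-scaled totals, and log2 CPM a prior count of 2. Nothing says whether an id is an animal or a culture, and p-values thus rest on the spread between samples, which may be technical. In the block and in differences within ids, ids were taken to pair the samples, from the counts and not from the labels. Deviations from treatment means correlated within ids 1, 3 and 4 (r = 0.44, 0.32 and 0.24, against -0.35 to 0.07 between ids). These deviations cancel out within each treatment, so the values between ids are not an independent reference. The main fit had no block. Blocked values are given for results whose call or count the block changed. No 2 columns agreed within sampling noise (chi-square per degree of freedom at least 4.63). Fits were tested on simulated data.

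Promoters come from RefSeq (GRCm38.p6) and transcripts for shared 50-base stretches from GENCODE M21 (GRCm38). Those 8 genes, 5 pathway lists, 3 interferon-inducible families and 12 marker lists were chosen with earlier results of these data known. Named genes are all PYHIN genes, per list up to 4 passing genes with the smallest adjusted p, the 5 genes with the most similar profile, and fixed partners (Pycard, Casp1, Il1b, Il18, Irf7), except 1 gene that is not reported here; Cgas, Tmem173, Dnase2a, the interferon ligands and receptors and the markers outside this rule were chosen after their values were seen. Alternatives were RLE size factors, DESeq2 1.42.0, other filters, the block and left-out samples.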

Additional observations from a re-analysis of the deposited data

How the results depend on the processing

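All 7 cluster genes kept their direction in the 15 alternatives run, and Aim2 did not pass in any. The count of the 8 genes that fell was 4 with RLE size factors or a filter of 1 CPM in 3 samples, and 7 with DESeq2, with no low-count filter, with the replicate block and without both columns with a second run. It was 2 to 5 without 1 sample (2 without PM replicate 3) and 7 in each blocked fit without an id. So few samples remain in those blocked fits that their calls rest largely on a spread pooled over genes, and they add little. All genes called lower were 382 with DESeq2, 497 with no filter, 1190 with the block, 467 without both second-run columns, 107 to 306 without 1 sample and 1277, 936 and 833 in blocked fits without id 1, 3 and 4. Those called higher were, in the same order, 202, 349, 1007, 162, 26 to 111, and 868, 644 and 696. With RLE size factors 243 genes were lower and 96 higher, and with the 1 CPM filter 242 and 93. Genes tested were 12549 with the 1 CPM filter, 27765 with no filter and 14140 to 14958 in the other fits. Inflammasome genes called lower were 3 with DESeq2 or no filter, 5 with the block, 4 without both second-run columns, 1 to 3 without 1 sample and 5 in blocked fits without an id, and 1 was higher with the block (0 or 1 without an id). DNA sensing genes called lower were 4 with DESeq2, with no filter or without both second-run columns, 5 with the block, 1 to 4 without 1 sample and 5 or 6 in blocked fits without an id. For DNA clearance, 2 were higher with DESeq2 or no filter, 4 lower and 4 higher with the block, 2 or 3 lower and 0 higher without 1 sample, and 4 lower and 2 to 4 higher in blocked fits without an id. Interferon ligands, receptors and factors called lower were 8 with no filter, 9 with the block, 3 to 7 without 1 sample and 7 to 9 in blocked fits without an id. Other PYHIN genes called lower were 0 or 1 without 1 sample and 1 or 2 in blocked fits without an id, and Ifit genes 1 to 4 and 4 or 5. The block changed the call of no member but Ifi206, Ifi207 and Ifi209. The cause of these changes was not tested. The share of 50-base stretches of Ifi211 found in other PYHIN genes was 63.6% with 75 bases and 56.9% with 100. The low counts of Ifi206 limit its precision.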
